A study of Mus musculus with 9 samples.

Results

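The platelet-derived growth factor (PDGF) receptor and ligand genes form a family of 6 members, chosen by gene symbol: the receptor genes Pdgfra and Pdgfrb and the ligand genes Pdgfa, Pdgfb, Pdgfc and Pdgfd. All 6 were found among the 27179 genes listed, by Entrez identifier (18595, 18596, 18590, 18591, 54635 and 71785 in that order). They are described here in mouse stromal cells sorted from the fibrous tissue around a tibial implant, 2 weeks after surgery. The sorted cells lacked blood lineage markers (Lin-) and carried tdTomato, a red fluorescent protein switched on by a tamoxifen-inducible Cre recombinase in cells that express Lepr, the leptin receptor gene. The Control group (genotype Lepr-CreERT;Tdtomato) comprised 4 libraries of polyadenylated RNA. The cKO group (Lepr-CreERT;Tdtomato;Grem1fl/fl) comprised 5, and its cells can in addition lose Grem1, which encodes Gremlin 1, a secreted antagonist of bone morphogenetic proteins. Cre, reporter, tamoxifen and implant were common to both groups, so by design the groups differ by the floxed Grem1 alleles. Their libraries also differed in read depth and in the presence of Xist, as given below. Age and sex are absent from the labels used here, as is any statement that libraries stem from separate animals, so p-values cover only the variation among these 9 libraries.

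PDGF ligands are secreted dimers. PDGF-A and PDGF-C signal mainly through the receptor PDGFR-alpha, PDGF-B through both receptors and PDGF-D mainly through PDGFR-beta. PDGF-A and PDGF-B are cut by furin-type proteases before secretion, whereas PDGF-C and PDGF-D are secreted in a latent form and activated outside the cell. The receptors are tyrosine kinases of connective tissue: PDGFR-alpha is known from fibroblasts and mesenchymal progenitors, PDGFR-beta from pericytes, smooth muscle and marrow stroma, and endothelial cells are a well known source of PDGF-B for the pericytes beside them.

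Values are normalized counts, gene read counts divided by 1 size factor per library. Differences are cKO minus Control in log2(normalized count + 1), from a limma fit over the 15832 genes that reached a value of 10 in 4 or more libraries. All 6 members were among these. The call threshold was a Benjamini-Hochberg adjusted p of 0.05 over all genes tested. Controls held 44.8 to 53.4 M (megareads) of recovered reads, cKO replicates 1 to 4 held 76.3 to 87.2 M and cKO replicate 5 held 43.5 M, so that depth and genotype can be compared at like depth only through cKO replicate 5. Grem1 itself had 356 to 736 in controls and 46.4 to 133 in the cKO group (limma adjusted p = 0.00781). Lepr spanned 935 to 40594 among controls and 1347 to 15785 in the cKO group, without passing the test (log2 difference 0.067, limma adjusted p = 0.976). Controls 1 and 3 stood apart by endothelial genes, with Pecam1 at 38993 and 47308 against 1242 and 2627 in controls 2 and 4, and they also held Xist, the transcript that coats the inactive X chromosome of females, at 870.1 and 2192. Xist was also present in cKO replicate 2, at 2206, and at 0 in the remaining libraries. cKO replicate 5 stood between the groups in the leading principal component, at -26.8 against -104 to -90.4 in controls and 74.1 to 126 in the other cKO libraries.

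Both receptors were abundant in every library, and Pdgfra alone of the 6 members passed the test, as higher in cKO cells. The share called over all genes was 7.48%, 4.61% in the higher and 2.87% in the lower direction, so 1 of 6 is a count too small to set the family apart. Pdgfrb pointed the other way with groups that did not overlap. The ligands Pdgfa, Pdgfb and Pdgfc had lower cKO means and Pdgfd a higher one, none of them past the test.

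**Figure D1:**
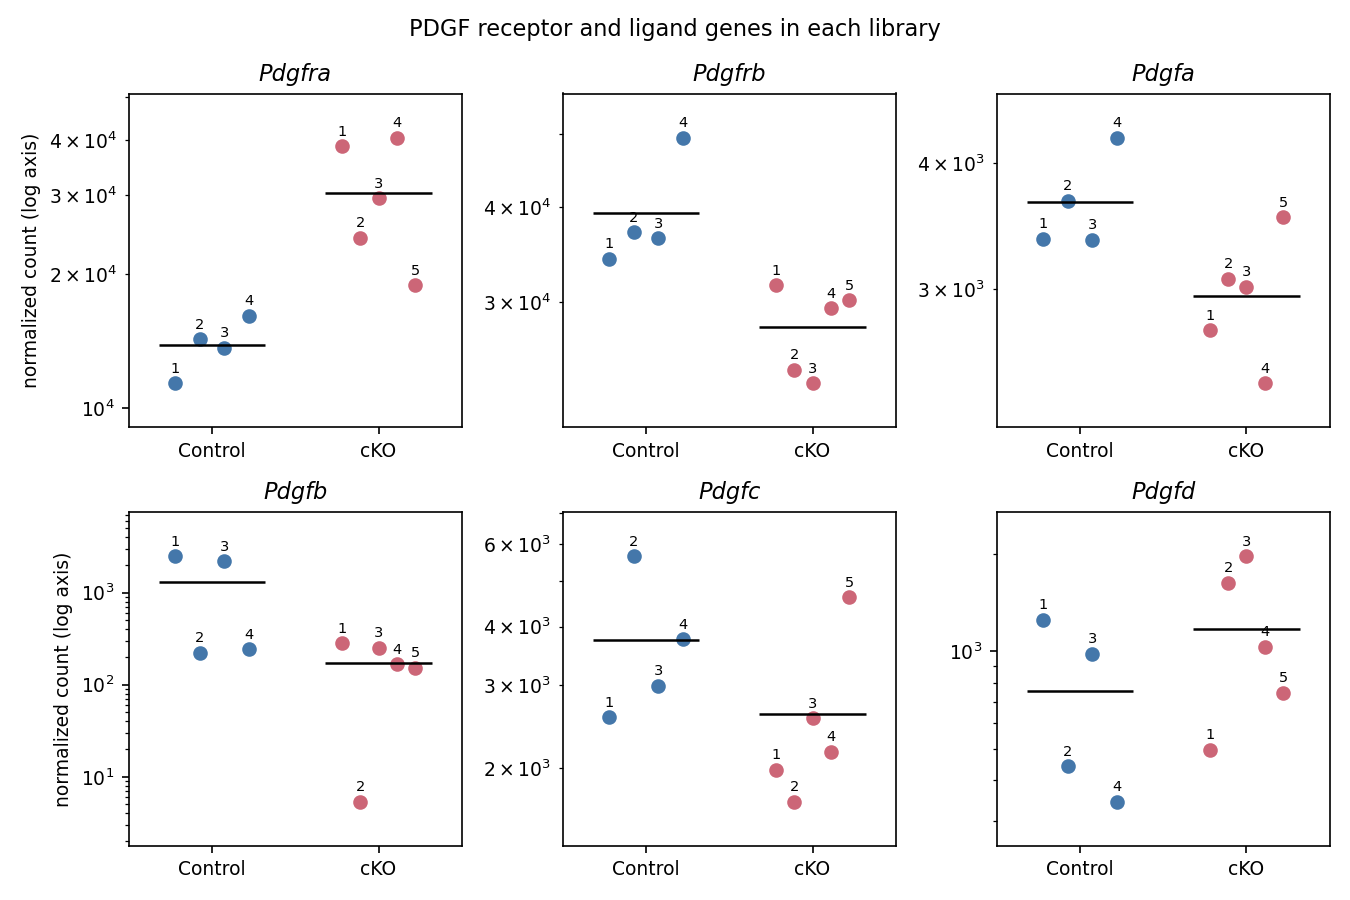
Normalized counts (log axis) of the 6 PDGF members in each Control (blue) and cKO (red) library; points are libraries, numbered by replicate, and lines are arithmetic means. All cKO points lie above all controls for Pdgfra and below them for Pdgfrb, Pdgfb is high in controls 1 and 3 only, and the other 3 ligands overlap between groups.

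Pdgfra, the gene of PDGFR-alpha, had normalized counts of 11382, 14268, 13648 and 16115 in the controls, in replicate order here and below. In the cKO libraries, likewise in order, it had 38646, 24098, 29573, 40450.0 and 18845. Every cKO library lay above every control, and the lowest of them was replicate 5, at 1.17 times the highest control. Group means were 13853 ± 1953 (SD, n = 4) and 30322 ± 9259 (SD, n = 5). Pdgfra was 2.12-fold higher in cKO cells (log2 difference 1.08, SE 0.23, 95% interval 0.58 to 1.59, limma adjusted p = 0.0229). Groups as separate as these were found for 11.4% of genes, and for 6.82% with the cKO side higher. In the authors' deposited table the log2 fold change of Pdgfra was 1.13 with an adjusted p of 0.000141. The call did not hold when any 1 of control replicates 1, 2 or 3 or of cKO replicates 1, 3 or 4 was left out: the limma adjusted p was then 0.0669, 0.0579, 0.0572, 0.0601, 0.0507 and 0.057, with log2 differences of 0.97 to 1.10. Without cKO replicate 5 the difference was 1.24 (limma adjusted p = 0.00219). Compared at like depth, the shallow cKO replicate 5 was 0.45 above the 4 controls (limma adjusted p = 0.604), a value that rests on a single cKO library assumed to vary like the controls. With all 9 libraries thinned to the smallest read total the difference was 1.08 (limma adjusted p = 0.023).

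Pdgfrb, the gene of PDGFR-beta, had 34258, 37129, 36431 and 49386 in the controls. The cKO libraries had 31623, 24485, 23516, 29486 and 30228. Every cKO library lay below every control, with 2635 normalized counts between the highest cKO library and the lowest control. A lower cKO side without overlap was found for 4.6% of all genes tested. Group means were 39301 ± 6833 (SD, n = 4) and 27868 ± 3629 (SD, n = 5). The log2 difference was -0.49 (SE 0.15, 95% interval -0.83 to -0.15), and its limma adjusted p of 0.0739 missed the threshold. The authors' deposited table gives Pdgfrb an adjusted p of 0.0173 at a log2 fold change of -0.50, in a table where 17.1% of genes with an adjusted p were called. Without cKO replicate 5 the limma adjusted p was 0.0392, at a difference of -0.52, in a fit that called 22.5% of all genes. Taken alone, cKO replicate 5 was lower than the controls by a log2 difference of -0.36.

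The balance of the receptors within a library does not depend on the size factor. Log2 ratios of Pdgfra to Pdgfrb were -1.59, -1.38, -1.42 and -1.62 in the controls. The cKO libraries had 0.29, -0.023, 0.33, 0.46 and -0.68. The controls lay within 0.24 of each other, all below every cKO library, and cKO replicate 5 was the nearest to them. The mean ratio was higher in cKO cells by 1.57 on the log2 scale, 2.98-fold (exact two-sided permutation test over all 126 assignments, p = 0.0159, where the smallest p possible is 0.00794). With each library left out in turn the difference was 1.48 to 1.76. For cKO replicate 5 alone the difference was 0.82, and the smallest exact permutation p that 4 against 1 library allows is 0.2.

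**Figure D2:**
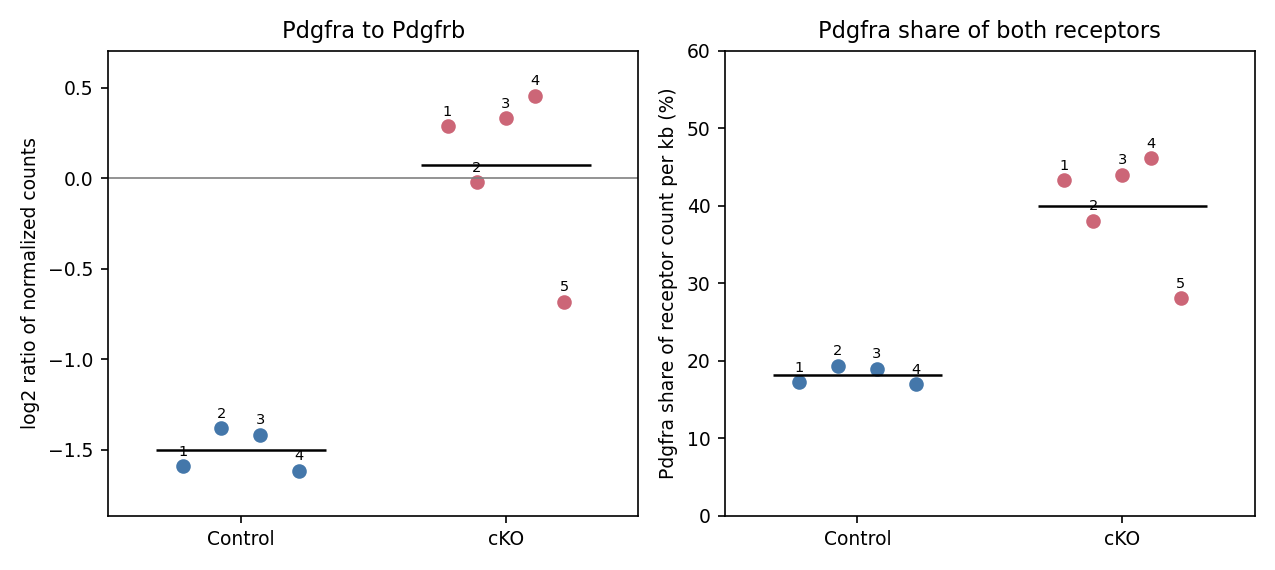
Left, log2 ratio of Pdgfra to Pdgfrb normalized counts; right, share of Pdgfra in the summed receptor counts per kilobase of exon (%), per Control (blue) and cKO (red) library, numbered by replicate, with lines at the means. With the exon lengths used, controls sit at 16.9% to 19.4% and cKO libraries at 28% to 46.2%, with replicate 5 lowest among the latter.

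Levels of different genes are comparable only per length, here as normalized count per kilobase (kb) of exon in GENCODE M21. On that scale Pdgfrb was the highest member and Pdgfra the next in all 9 libraries. The lengths join the exons of all transcripts in the basic set, 8.77 kb for Pdgfra and 5.48 kb for Pdgfrb. Before division by length Pdgfra exceeded Pdgfrb in cKO replicates 1, 3 and 4, by ratios of 1.22, 1.26 and 1.37. The order of the receptors and their shares thus depend on the lengths used, and the annotation used for counting is not stated. Pdgfrb had 7174 ± 1247 per kb in controls and 5087 ± 662 in cKO libraries, and Pdgfra 1580 ± 223 and 3459 ± 1056. Pdgfra thus made up 16.9% to 19.4% of the receptor counts per kb in controls and 28% to 46.2% in the cKO group. Among ligands in controls, Pdgfa (1243 ± 140 per kb) and Pdgfc (1063 ± 388) did not differ beyond their spread. Nor did Pdgfb (439 ± 417) and Pdgfd (239.5 ± 138). By group mean the order in cKO libraries was Pdgfa (1005 ± 141), Pdgfc (739 ± 333), Pdgfd (373 ± 194) and Pdgfb (58.4 ± 36.6). Neighbours among the first 3 overlapped: Pdgfd lay above Pdgfc in cKO replicate 2, and Pdgfc above Pdgfa in cKO replicate 5. Pdgfb was the lowest member in every cKO library, and in controls 2 and 4, while Pdgfd was the lowest in controls 1 and 3.

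Pdgfa encodes PDGF-A, a ligand of PDGFR-alpha. It had 3366, 3669, 3358 and 4238 in the controls and 2732, 3072, 3018, 2423 and 3535 in the cKO libraries. The groups overlapped through cKO replicate 5, which lay above controls 1 and 3. The log2 difference was -0.31 (95% interval -0.61 to -0.0095, limma adjusted p = 0.173), the narrowest interval of the 6. At like depth it was -0.043. Of the exon bases of Pdgfa, 27.6% are shared with an antisense gene, 6330403L08Rik, and no source used here says whether counting used strand, so part of its count is uncertain. For Pdgfra the shared part was 5.54% and for Pdgfc 4.17%, and for the other 3 members it was 0.

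Pdgfc encodes PDGF-C, which like PDGF-A signals mainly through PDGFR-alpha. Controls had 2564, 5653, 2994 and 3764 and cKO libraries 1982, 1697, 2549, 2164 and 4624. cKO replicates 1 to 4 were all below the lowest control, and replicate 5 was above 3 of the 4 controls. The log2 difference was -0.55 (95% interval -1.24 to 0.14, limma adjusted p = 0.281). It was -0.78 without cKO replicate 5 (limma adjusted p = 0.0483), and at like depth the direction turned, to 0.37. The log2 ratio of Pdgfc to Pdgfa overlapped between the groups (-0.39 to 0.62 in controls, -0.86 to 0.39 in the cKO group), with control 2 and cKO replicate 5 highest.

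**Figure D3:**
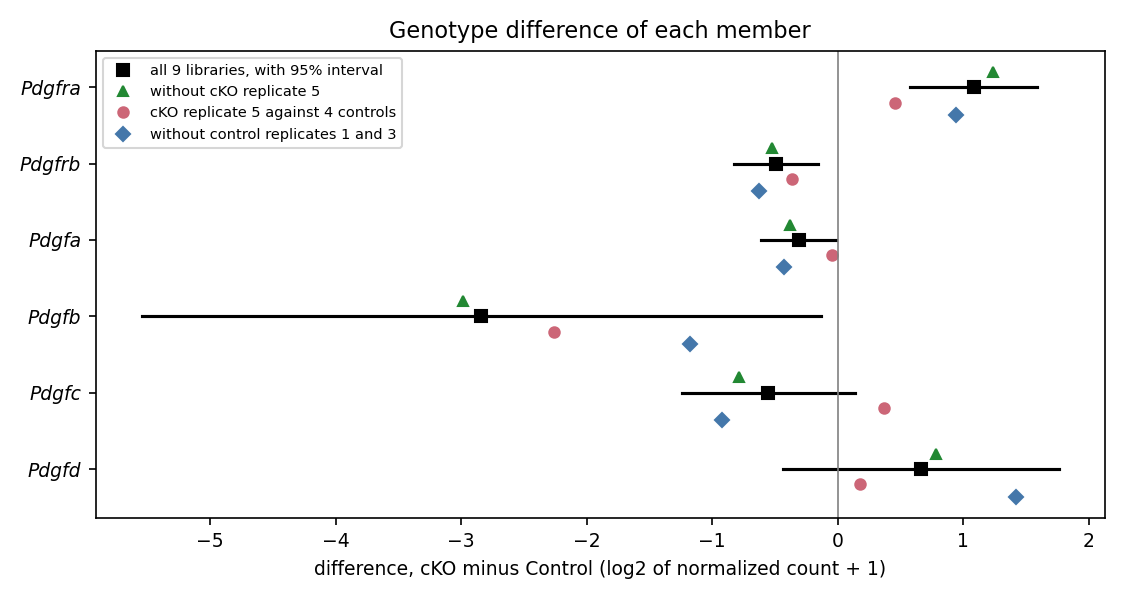
Difference of each member, cKO minus Control, in log2(normalized count + 1); squares with bars are the limma estimate over 9 libraries and its 95% interval, and the other symbols are estimates over fewer libraries. Pdgfra stays above 0 and Pdgfrb below it in each, Pdgfc changes side when cKO replicate 5 alone is compared with the controls, and Pdgfb moves from -2.84 to -1.17 without controls 1 and 3.

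Pdgfb encodes PDGF-B, which binds both receptors. Its counts were 2494 and 2207 in controls 1 and 3 but 223 and 242 in controls 2 and 4. The cKO libraries had 281, 5.38, 252, 168 and 153. Controls 2 and 4 therefore lay within the range of the cKO libraries, and replicate 2, with 8 reads, was far below all others. The group means, 1292 ± 1228 (SD, n = 4) and 172 ± 108 (SD, n = 5), stood in a 7.52-fold ratio. The log2 difference was -2.84 (SE 1.22, 95% interval -5.55 to -0.13, limma adjusted p = 0.166). Without controls 1 and 3 the difference was -1.17 (limma adjusted p = 0.664), and without cKO replicate 2 it was -1.83 (limma adjusted p = 0.205). In the authors' deposited table Pdgfb has an adjusted p of 0.0143 at a log2 fold change of -2.91.

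The endothelial list moved with Pdgfb across libraries. Its 12 genes summed to 172491 and 208112 in controls 1 and 3, to 9142 and 13719 in controls 2 and 4, and to between 6615 and 11525 in cKO libraries, lowest in cKO replicate 2. Other defining markers were also high in controls 1 and 3: Cdh5 (VE-cadherin) had 7249 and 7265 in controls 1 and 3, 181 and 249 in controls 2 and 4, and 96.8 to 234 in cKO libraries. Kdr, a VEGF receptor gene, had 14010 and 17585, then 459 and 492, and 216 to 546 in cKO libraries. Of the 12 genes 3 passed as lower (25%, beside 7.48% of all genes tested). Platelets are another source of PDGF-B, and the 9 megakaryocyte genes summed to 735 to 1650 in controls and 351 to 1149 in the cKO group, with none of the 6 tested past the test. Pf4, the platelet factor gene, had no read in 3 of the 5 cKO libraries and 90.4 to 219 in controls. The other defining markers overlapped between the groups. Itga2b had 364 to 1065 in controls and 251 to 615 in the cKO group, and Gp9 had 40.9 to 138 and 5.42 to 161. The part of either cell type in the Pdgfb values was not tested. In RNA pooled from many cells, fewer cells of a type and less RNA per cell cannot be told apart.

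**Figure D4:**
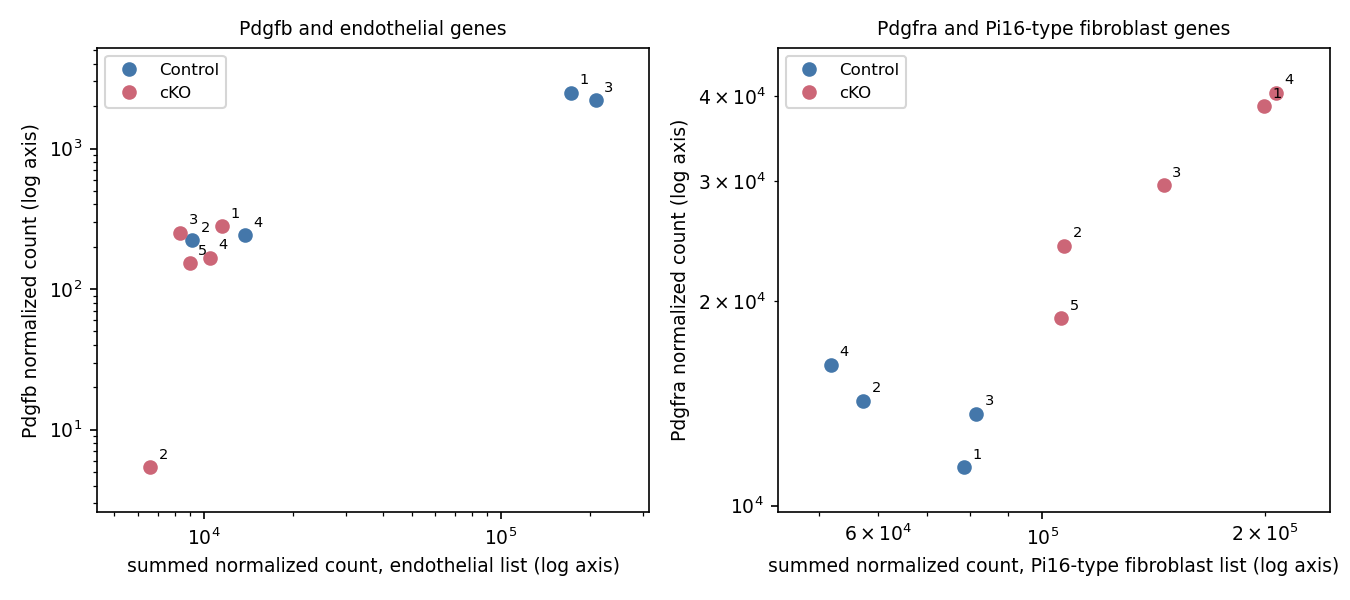
Left, Pdgfb against the summed normalized count of 12 endothelial genes; right, Pdgfra against that of 9 Pi16-type fibroblast genes; both axes are log axes and points are libraries numbered by replicate, Control in blue and cKO in red. Controls 1 and 3 are high in both Pdgfb and endothelial genes, and the 5 cKO libraries are high in both Pdgfra and the fibroblast genes.

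Pdgfd encodes PDGF-D, a ligand of PDGFR-beta. Controls had 1252, 441, 984 and 344 and cKO libraries 498, 1631, 1969.7, 1034 and 746. The highest values were in cKO replicates 2 and 3 and the lowest in controls 4 and 2, with overlap between. The log2 difference was 0.66 (SE 0.49, 95% interval -0.44 to 1.76, limma adjusted p = 0.419), an interval that includes both no change and a 3.39-fold higher level. Without controls 1 and 3, the libraries with the endothelial signal, it was 1.42 (limma adjusted p = 0.192), and at like depth 0.18.

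Markers of other cells were, like Pdgfra, higher in the cKO group. The 9 genes of Pi16-type fibroblasts, a population found in many tissues, summed to 51898 to 81504 in controls and 106084 to 206923 in the cKO group. Of these genes 5 of 9 rose (55.6%, beside 7.48% of all genes tested). Within the cKO group these sums ranked as Pdgfra did. Among controls they did not: the sum was lowest in control 4, where Pdgfra was highest, at 16115. Pi16 itself had 884 to 1738 in controls and 6712 to 15487 in the cKO group, and Dpp4 had 233 to 437 and 1872 to 8019. Skeletal muscle genes (13 of 13 higher; summed counts 907 to 2697, then 82508 to 709645 in cKO cells) and Schwann cell genes (6 of 9 higher; 3366 to 8975 and 16735 to 45867) were also higher. Genes of the LEPR stroma list were not called (0 of 10), and their sums overlapped, 38688 to 334371 among controls and 45737 to 160789.9 in the cKO group. The part of these cell types in the Pdgfra values was not tested.

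Beside Pdgfrb, the pericyte and smooth muscle list was mixed. Of 13 genes 2 rose and 2 fell (30.8% called, beside 7.48% of all genes tested). The sums overlapped, at 113594 to 174049 in controls and 119325 to 136039 in the cKO group. Its defining markers were Rgs5 (log2 difference -0.82, limma adjusted p = 0.0681), Cspg4, the NG2 proteoglycan gene (-1.23, limma adjusted p = 0.0247), and Notch3 (0.028, limma adjusted p = 0.963). Cartilage genes were lower as well (10 of 15 called; summed counts 2207131 to 5054492, then 260322 to 1386569 in cKO cells, highest in cKO replicate 5). Macrophage genes overlapped between the groups (1 of 11 lower; 33565 to 65963 and 9642 to 109909.6), as did osteoblast genes (0 of 10). The part of these cells in the Pdgfrb values was not tested.

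Likeness of pattern was measured as the root mean square difference between profiles of log2(normalized count + 1) over the 9 libraries, each centred on its own mean, among 14160 genes with a mean of at least 50. Among the nearest to Pdgfra were Tppp3 (0.118) and Axl (0.14), another receptor tyrosine kinase gene, against a spread of 0.63 in Pdgfra itself. Among the nearest to Pdgfrb were Rcc2 (0.0826) and Trmt1l (0.11), against a spread of 0.31. These values describe the 9 libraries and the choice among many genes favours small distances.

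Other genes of the pathway were taken as 93 genes in 5 lists. Of the 92 tested, 11 passed (12%, beside 7.48% of all genes tested), 5 as higher (5.43%, beside 4.61%) and 6 as lower (6.52%, beside 2.87%). The median log2 difference over all genes tested was -0.0039. With each library left out in turn Furin kept its call in 9 of 9 fits and each of the other 10 genes in 1 to 3, and at like depth all 11 kept their direction with none called.

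Among 9 genes of ligand processing and binding (median -0.44), 1 fell and none rose (11.1%, beside 7.48% of all genes tested). Furin, which encodes the protease that cuts the PDGF-A and PDGF-B precursors, had 14301, 14766, 15662 and 14553 in the controls and 8239, 5752, 8671, 5708 and 8701 in the cKO libraries. The groups lay far apart, and cKO replicate 5 was the cKO library nearest the controls, with replicate 3 close to it. Furin was 2.04-fold lower in cKO cells (log2 difference -1.03, SE 0.16, limma adjusted p = 0.0068). At like depth the difference was -0.77 (limma adjusted p = 0.101). Plat, the tissue plasminogen activator gene whose product activates PDGF-C, did not pass (0.28, limma adjusted p = 0.308), nor did Plau, the urokinase gene (0.47, limma adjusted p = 0.623). St14, the matriptase gene, differed by -3.49 without passing (limma adjusted p = 0.266). It had 55.9 to 270 in controls, and 326, 0, 0, 113 and 0 in the cKO libraries, so that the difference rests on the values of 0.

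Of 37 signalling genes acting next to the receptors (median -0.038), 2 fell and none rose. This share, 5.41% of the list, was below the 7.48% of all genes tested. Shc1, an adaptor that links receptors to Ras, was 1.57-fold lower, with 11499.6 to 12324 in controls and 6077 to 10663 in the cKO group. Stat3, a transcription factor phosphorylated downstream of many receptors, was 1.38-fold lower, with 20109.7 to 21749.96 and 13058 to 17632. Both sets of values were free of overlap (limma adjusted p = 0.0382 and 0.0375), and cKO replicate 5 was the cKO library nearest the controls in both. At like depth the differences were -0.17 and -0.24.

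**Figure D5:**
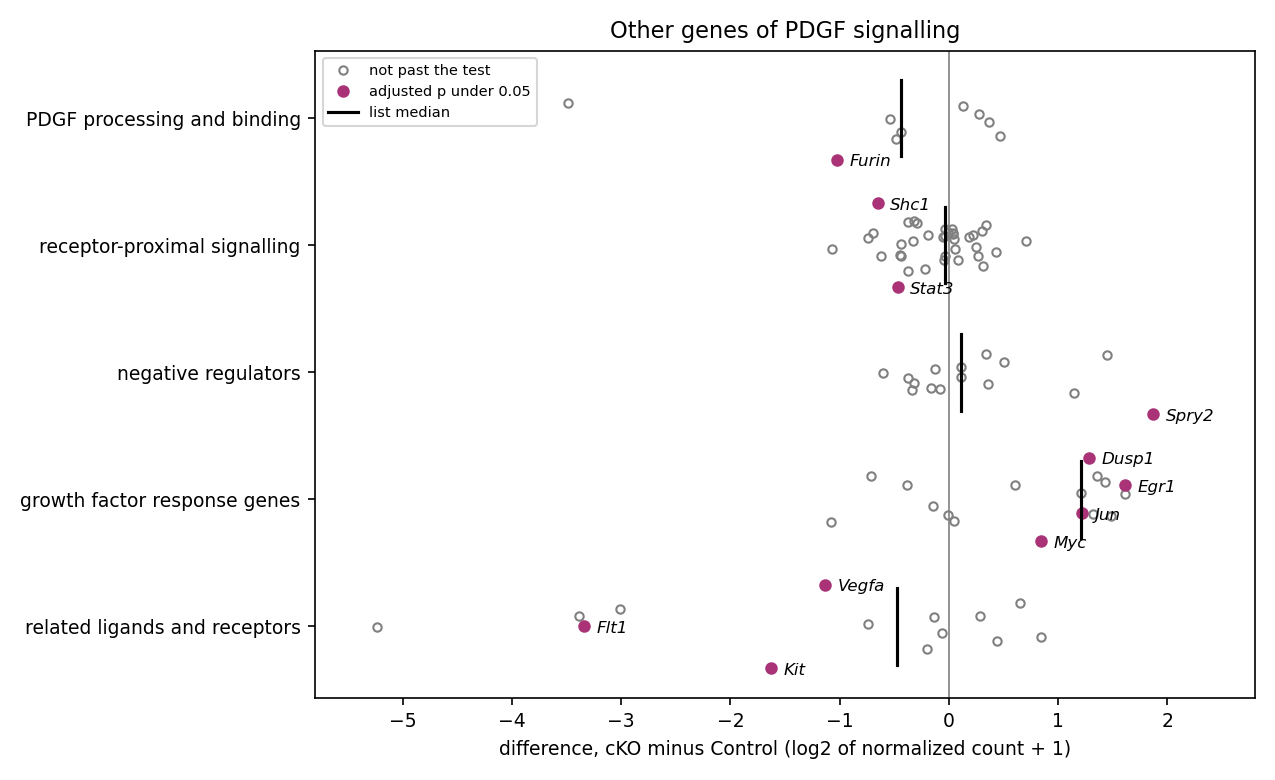
Difference, cKO minus Control, in log2(normalized count + 1), of 92 genes in 5 lists of PDGF signalling; filled points passed the limma test (adjusted p under 0.05) and are named, open points did not, and bars are list medians. The 4 called response genes and Spry2 lie above 0, and Furin, Shc1, Stat3, Vegfa, Kit and Flt1 below it; vertical scatter within a list carries no value.

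Of 15 negative regulators (median 0.11), 1 rose and none fell. This share, 6.67% of the list, was also below the 7.48% of all genes tested. Spry2, which encodes a Sprouty inhibitor of receptor tyrosine kinase signalling to Ras, had 116 to 228 in controls and 307 to 877 in the cKO group, without overlap (3.66-fold, limma adjusted p = 0.0238). Spry1 (1.45) and Spred2 (1.14) had log2 differences above 1 without passing (limma adjusted p = 0.115 and 0.0769). In both the groups overlapped through cKO replicate 5. Across the list differences ran from -0.61 to 1.87, so some regulators were lower, none of them called.

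Immediate response genes are transcribed within a short time of stimulation by PDGF but also by many other growth factors and stresses. Their median was 1.21, and 4 of 17 rose with none lower (23.5% of the list, beside 7.48% of all genes tested). The 4 were Egr1 (3.07-fold), Dusp1 (2.43-fold), Jun (2.33-fold) and Myc (1.8-fold), with limma adjusted p of 0.0405, 0.0456, 0.0319 and 0.0301. Egr1 had 41400.3, 22677, 43957 and 25589 in the controls and 108548, 119380.4, 214006, 61631 and 53680.0 in the cKO libraries. All cKO libraries were above all controls, replicates 5 and 4 being nearest to them. Fos had a log2 difference of 1.43, but its groups overlapped and it did not pass (limma adjusted p = 0.0668). Differences in the list ran from -1.08 to 1.62, so some of its genes were lower without passing. At like depth the differences of the 4 called genes were 0.74, 0.48, 0.55 and 0.44, in the same order.

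The related family of vascular endothelial growth factors and the kinases closest to the PDGF receptors gave 3 lower genes of 14 tested and none higher (median -0.47). Their share was 21.4%, beside 7.48% of all genes tested. Kit, a receptor of the same kinase class as the PDGF receptors, was 3.09-fold lower (limma adjusted p = 0.0288), with 1652 to 5017 in controls and 717 to 1571 in the cKO group. Vegfa was 2.19-fold lower (limma adjusted p = 0.0481), and its groups overlapped, since cKO replicate 5 had 4395 and control 1 had 3148. Flt1, the gene of VEGF receptor 1 and an endothelial list member, was 10.1-fold lower (limma adjusted p = 0.0468). Its counts were 7719 and 10035 in controls 1 and 3, 632 and 1211 in controls 2 and 4, and 73.4 to 510.1 in cKO libraries. Without controls 1 and 3 the differences of Kit, Vegfa and Flt1 were -0.97, -1.47 and -1.67, and none was called (limma adjusted p = 0.164, 0.0616 and 0.25).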

How the data were processed

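RNA was sequenced as paired-end reads of 150 bases, per the labels' protocols. The authors deposited a signal matrix of normalized counts, scaled by 1 size factor for each library. The submitters' processing notes name STAR, featureCounts, DESeq2 and mm39 without versions. Annotation and strand setting are not stated. The deposited table of the authors' comparison holds, per the file headers, mean signal, log2 fold changes, a test statistic (score) and p-values. Symbols came from an NCBI table of GRCm38.p6 (25275 of 27179 IDs matched), used for names only, and exon lengths from GENCODE M21, also GRCm38. Since that build differs from mm39, no coordinates are given.

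Dividing each column by its smallest value above 0 recovered whole reads (43.5 to 87.2 M per library; tolerance 0.01 of a read; at least 99.99% of values above 0 whole). Across all genes edgeR then called 786 and DESeq2 2539. Differences were tested with limma 3.58.1 under R 4.3.3 (trend, two-sided, genotype only, pseudocount 1), which called 1184; it understates changes of low genes. It was tested on simulated data. At set cKO to Control ratios of 2, 4, 0.5 and 0.25, limma called 13, 31, 4 and 22 of 50 genes each. With the ratio set to 1 it called 3 of 15632. Most of the changes set at ratios of 2 and 0.5 were thus not called. Alternatives used edgeR 4.0.16, DESeq2 1.42.0, other pseudocounts (0.5 and 5), filters, scalings, weights, a block, depth restrictions and leaving out libraries. A single ratio was tested by exact permutation. Groups and replicate numbers came from the titles.

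The members, lists and tests were chosen with earlier results of these data known. Named genes were the members, Grem1 and Lepr, in each pathway list up to 4 passing genes in each direction by p, the 3 nearest profiles to each receptor gene, and the first 3 genes of cell type lists. A few of the genes so chosen are left unreported, with no substitutes. Plat, Plau, St14, Spry1, Spred2 and Fos were named after their values were seen. The 10 cell type lists (LEPR stroma, Pi16-type fibroblast, pericyte and smooth muscle, endothelial, megakaryocyte, macrophage, skeletal muscle, Schwann, cartilage, osteoblast) are given by counts and sums.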

Additional observations from a re-analysis of the deposited data

Results flagged for a closer look

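Among 42 groups of values examined, 2 held a library whose gap to its nearest neighbour took up more of the group's range than Dixon's 95% criterion allows (0.71 for 5 libraries); chance alone gives about 1 in 20. Both were cKO replicate 5. Kit had a normalized count of 1571 there, against 717 to 844 in the other 4 cKO libraries, and Vegfa had 4395 against 1818 to 2444. None of the 6 PDGF members, examined as unlogged normalized counts, and neither of the ratios, examined as log2 values, held such a library. On the unlogged scale a single low value is hard to flag. The criterion was not applied to log2 counts, where Pdgfb in cKO replicate 2 stood at 2.67 against 7.27 to 8.14 in the other 4 cKO libraries.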

How the results depend on the processing

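The number of calls moved most with which libraries entered. Of the 15832 genes, limma called 1184 in the full comparison, 377 to 3562 with each library left out in turn, 338 without controls 1 and 3 together, 83 among libraries under 60 M reads and 78 with depth class as a covariate. edgeR called 786, DESeq2 2539 and limma with library quality weights 4056. In the same order the members called, 1 in the full comparison, were 0 to 3, then 0, 0, 0, 1, 3 and 4, and the pathway genes, 11 in the full comparison, were 1 to 30, then 0, 0, 0, 7, 27 and 32; without a filter they were 6. Where no member was called without controls 1 and 3, under 60 M and with the covariate, limma gave an unadjusted p under 0.05 to 3212, 1503 and 1390 of all genes. The share of all genes called was 16.2% with DESeq2 and 25.6% with quality weights, where Pdgfra, Pdgfrb and Pdgfb, and Pdgfra, Pdgfrb, Pdgfa and Pdgfc, were called. With all libraries thinned to the smallest read total 1179 genes, 1 member and 11 pathway genes were called, and the receptor ratio differed by 1.58. The depth covariate and the libraries under 60 M give the same estimate, since no control is deep, and both compare a single cKO library with the controls, so depth and the number of libraries changed together.

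Same-numbered libraries of the groups did not deviate together (correlations of 0.07, 0.017, -0.006 and -0.011), and no control number matched its own number best. With a replicate block, which drops cKO replicate 5, 2715 genes, 2 members (Pdgfra and Pdgfb) and 23 pathway genes were called, and the receptor ratio differed by 1.76 (exact permutation p = 0.125, the smallest that 4 pairs allow). Among libraries under 60 M the ratio differed by 0.82 (exact permutation p = 0.2).

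Pdgfc reversed to 0.37 with the depth covariate and among libraries under 60 M. Lepr, not called in any setting, reversed to -0.63 with edgeR, -0.61 with DESeq2 and -2.54 under both depth settings. With each library left out in turn Lepr was -0.96 to 0.86, on both sides of 0. It was 1.03 with library quality weights and 1.88 without controls 1 and 3 together. Pdgfra, Pdgfrb, Pdgfa, Pdgfb and Pdgfd kept their direction in all 23 alternatives. The causes were not tested.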
